A study of Mus musculus with 12 samples.

Results

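All 12 RNA-seq libraries of S1 gastric cancer tumorspheres were read as a 2 by 2 design of *Nf2* loss and *Rasa1* loss, with 3 libraries in each of the 4 arms. The arms were taken from the names of the deposited tables, which are Con, NF2_KO, Rasa1_KO and Do. For each gene, the effect of *Nf2* loss in cells that had also lost *Rasa1* (Do minus Rasa1_KO) was compared with its effect in cells that had not (NF2_KO minus Con), and the difference between these effects is the interaction, in log2 units. Of 18926 genes in the tables, 18053 passed the filter on low counts and were tested.

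S1 is a cell line from a gastric cancer of mice with floxed alleles of *Smad4* (F/F), *Trp53* (F/F) and *Cdh1* (F/+), a background that all arms share. The knockouts were made with Cas9 and lentiviral guide RNAs, and spheres were grown in suspension in medium with epidermal growth factor, although the cell type field of the sample records gives a monolayer. By genotype label, the Con libraries are Control and the NF2_KO libraries are Nf2 KO. The labels exchange the remaining arms: the Do tables belong to samples labelled Rasa1 KO, and the Rasa1_KO tables to samples labelled Rasa1 KO, Nf2 KO. Arms are called here by the names of the tables, and values with the arms taken from the labels are given where the exchange matters. Libraries carry the numbers of their tables, 1 table each of Con and Rasa1_KO being unnumbered, and the study's legends call such points technical replications, so that every p-value measures the spread between libraries, which may be technical.

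*Nf2* encodes merlin, a scaffold at the cell cortex that activates the LATS kinases of the Hippo pathway, which in turn keep the coactivators YAP and TAZ out of the nucleus. *Rasa1* encodes p120 RasGAP, which speeds the hydrolysis of GTP on Ras and so limits signalling to ERK. Both are tumour suppressors whose loss feeds growth through different routes, and the design asks whether the transcriptome of cells without both is the sum of the single losses. On a log2 scale an interaction of 0 means that the fold changes of the single losses multiply.

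The guides designed against each gene are shown because they place the cuts whose mRNA is measured next. Each was found by an exact match to GENCODE M21 transcripts (GRCm38). They are printed 5′ to 3′ in lower case with the adjacent PAM in capitals, and the methods give guide 1 of each gene for double-knockout mouse lines, while which guide made the single-knockout S1 lines is not given in the sources used here.
Nf2 guide 1: cttggtatgcggagcaccgGGG
Nf2 guide 2: gagcacggacgcctcgggaGGG
Rasa1 guide 1: ctgagacgctcgggccgggCGG
Rasa1 guide 2: gacgcggctccgccaccgaGGG
The *Nf2* guides lie in coding exon 6 (chr11:4806266-4806284, minus strand) and coding exon 4 (chr11:4816109-4816127, plus strand) of the 17-exon transcript Nf2-201. Both *Rasa1* guides lie in the coding part of exon 1 of the 25-exon Rasa1-201, at chr13:85288543-85288561 on the minus strand and chr13:85288711-85288729 on the plus strand.

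*Nf2* mRNA (chr11:4757639-4849544) stood at 58.1, 61.0 and 55.4 CPM, the counts scaled to library size, in the Con libraries unnumbered, 1 and 2, and at 62.6, 57.6 and 56.4 CPM in the Rasa1_KO libraries. It stood at 14.3, 13.2 and 13.2 CPM in NF2_KO libraries 1 to 3 and at 11.6, 11.9 and 12.1 CPM in Do libraries 1 to 3. *Nf2* was therefore low in every NF2_KO and Do library and at the control level in every Rasa1_KO library, which goes against the label Rasa1 KO, Nf2 KO of the Rasa1_KO tables and the label Rasa1 KO of the Do tables. *Rasa1* mRNA (chr13:85214699-85289486) stood at 60.5, 74.9 and 78.5 CPM in Con, 17.7, 20.6 and 23.3 CPM in Rasa1_KO, 97.2, 101 and 97.2 CPM in NF2_KO, and 34.5, 30.4 and 30.8 CPM in Do. It was lower in all 6 libraries of the Rasa1_KO and Do arms than in all 6 of the others. The interaction of *Nf2* was -0.21 (95% interval -0.48 to 0.06, edgeR adjusted p = 0.38) and that of *Rasa1* was 0.17 (95% interval -0.22 to 0.56, edgeR adjusted p = 0.68), so a departure from the sum was not detected for either target.

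Total counts lay between 43818139 (Con 2) and 96674463 (unnumbered Rasa1_KO). The NF2_KO and Do libraries lay close to their own arm, at mean distances of 51.2 to 53.3 in log2 CPM over all genes tested. The Con libraries did not: the unnumbered Con library lay on average 147 from the other Con libraries and its nearest library was the unnumbered Rasa1_KO library, at 91.7. The mean distances within Con of libraries 1 and 2 were 103 and 124, and that of the unnumbered library within Rasa1_KO was 89.3. Libraries of an arm differed by more than counting noise, with a chi-square per degree of freedom from 15.8 to 565. This covers counting error only and does not show that the libraries are independent replicates. Each was counted as a library of its own. All main values use the 12 libraries, and values without both unnumbered libraries are given beside them. The gastric epithelial origin was checked against its markers. *Krt8*, an epithelial keratin, was the most abundant of the 8 measured markers, with arm means from 2257 to 3526 CPM, whereas *Cldn18*, *Tff1* and *Tff2*, which mark mature gastric cells, had arm means from 0.17 to 2.2 CPM.

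**Figure D1:**
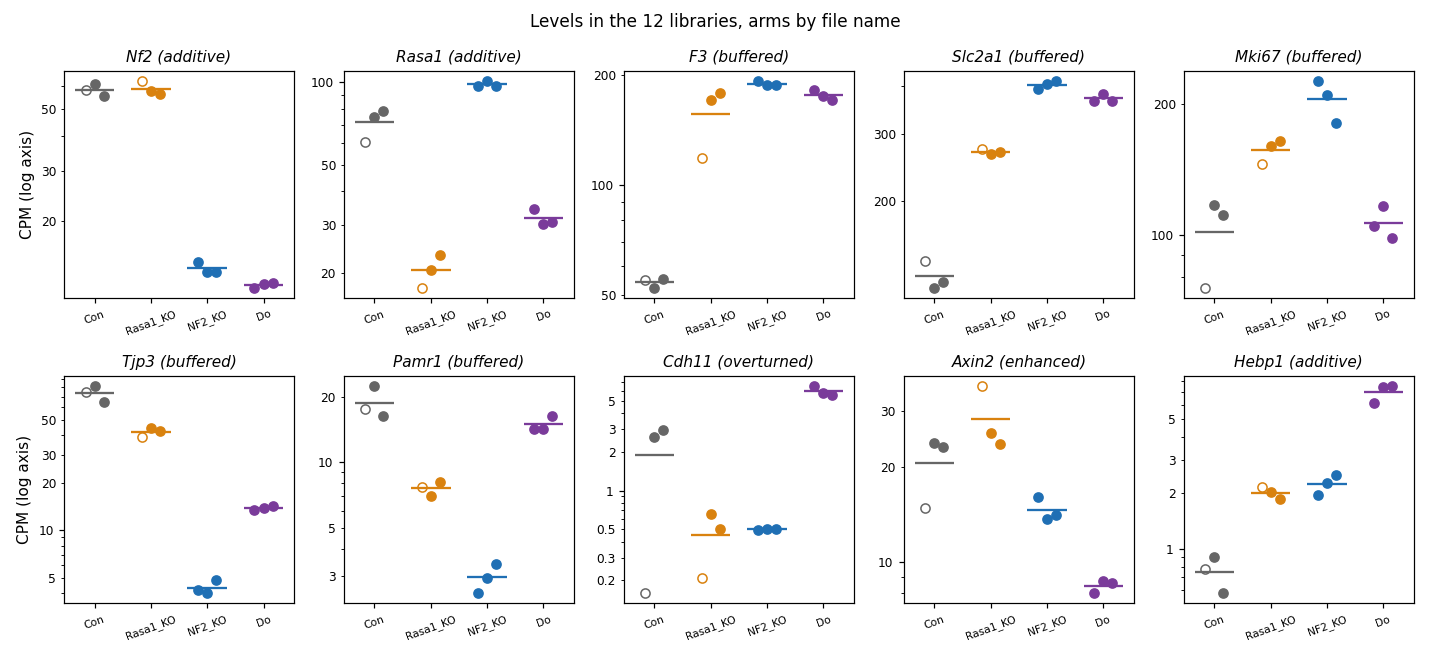
CPM of 10 genes (log axis) in the 12 libraries by arm; points are libraries, open points the unnumbered ones, and bars arm means. *Nf2* is low in NF2_KO and Do, *Rasa1* in Rasa1_KO and Do; *Slc2a1* is slightly lower in Do than in NF2_KO, *Pamr1* is low in both single arms and not in Do, and *Hebp1* is highest in Do.

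The interaction was called in 1157 genes (6.41% of those tested) at an edgeR quasi-likelihood adjusted p under 0.05, of which 485 (2.69%) had an interaction above 0 and 672 (3.72%) below 0. The absolute interaction had a median of 1.07 log2 units among them, exceeded 1 in 677 genes and 2 in 173, and its smallest called value was 0.425. The median over all genes tested was 0.03. On the linear CPM scale, 1152 of the 1157 had an interaction of the same sign. The balance of directions turned under the study's rule of a fold of at least 3 and raw p under 0.05. Of 688 genes that met it, 466 were above 0 and 222 below 0. Without both unnumbered libraries 4603 genes were called, 1156 of the 1157 among them with the same sign, and without the unnumbered Con library alone 3762. With a replicate block by table number 2387 genes were called, and with one by label number 305, of which 297 were among the 1157. Leaving out any 1 library of Do or NF2_KO, or Rasa1_KO 1 or 2, left 628 to 710 genes called. With the arms taken from the genotype labels, 9454 genes were called (4950 above 0), with the same sign in 870 of the 1157, and 172 of the 1157 had the opposite sign.

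The genes called were sorted by comparing the observed change of Do against Con with the sum of the single changes, NF2_KO against Con plus Rasa1_KO against Con. In 981 genes (84.8% of those called) the change of Do had the direction of the sum but was smaller, and these are called buffered. In 155 genes (13.4%) the change of Do had the direction opposite to the sum, and these are called overturned. In 69 of them Do was not called against Con and the 95% interval of its change lay within 1 log2 unit of 0. In 21 genes (1.82%) Do went beyond the sum, and these are called enhanced. The interaction and the sum are computed from the same Con libraries with opposite signs, so that noise in Con alone moves genes toward the buffered class, and the classes are a description without a test. A further 4439 genes that were called in NF2_KO, Rasa1_KO or Do against Con, but not for the interaction, had a 95% interval within 1 log2 unit of 0 and are called additive. Of these, 243 were called in Rasa1_KO against Con, 3398 in NF2_KO only and 798 in neither single arm. In most of them no *Rasa1* effect was called, so the class there means only that no departure was seen. The remaining 12457 genes were undetermined, being neither called nor bounded or not changed against Con. Over all genes tested, the interval lay within 1 log2 unit of 0 in 47.3%, and the median standard error of the interaction was 0.30.

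**Figure D2:**
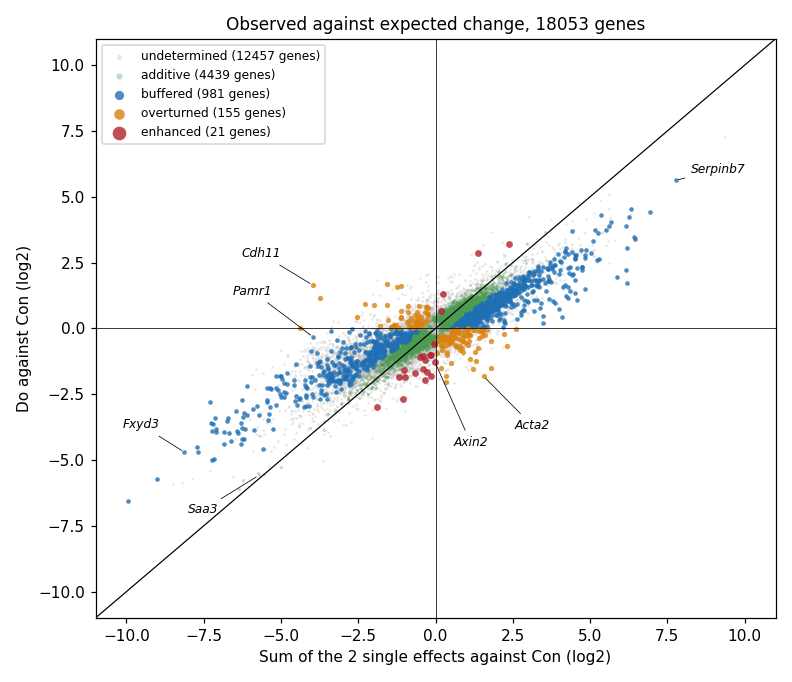
Change of Do against Con (y axis, log2) plotted against the sum of the 2 single changes (x axis, log2) for 18053 genes, with the line of equality; colours mark the classes. The 981 buffered genes lie between the line and 0, the 155 overturned genes across 0 and the 21 enhanced genes beyond the line.

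Each single loss was next followed into the other background, a view that shares no library between the arms that choose the genes and those that measure them. *Nf2* loss carried over: the 3710 genes higher in NF2_KO than in Con, with a median change of 0.87, had a median change of 0.50 in Do against Rasa1_KO, and 1893 were called higher there and 50 lower. The 4011 genes lower in NF2_KO had medians of -1.12 and -0.68, with 2219 called lower and 29 higher. Of these genes, 90.0% and 92.3% moved in the same direction in both backgrounds, against shares of 49.7% above 0 and 50.3% below 0 over all genes tested. Without both unnumbered libraries, 6004 genes were higher and 6166 lower in NF2_KO, and the shares were 88.4% and 86.3%. Deviations of Con and Rasa1_KO libraries correlated by table number (0.626, 0.313 and 0.444), so the *Nf2* comparisons are not fully independent. *Rasa1* loss did not carry over as *Nf2* loss did. The 722 genes higher in Rasa1_KO than in Con had a median change of 0.84 there and of -0.02 in Do against NF2_KO, where 40 were called higher and 59 lower. The 444 genes lower in Rasa1_KO, with a median of -0.84, had a median of 0.09 in Do against NF2_KO, where 28 were called lower and 58 higher. Without both unnumbered libraries, 3100 genes were higher and 2333 lower in Rasa1_KO, and their medians in Do against NF2_KO were 0.01 and 0.02. For reference, 42.8% of all genes tested were called in NF2_KO against Con, 6.46% in Rasa1_KO against Con, 41.9% in Do against Con, 30.3% in Do against Rasa1_KO and 3.66% in Do against NF2_KO. In Do against NF2_KO, 1591 of 18169 genes were called higher and 1903 lower without both unnumbered libraries, which belong to neither arm. The fit takes the spread of each gene from all 4 arms together, so that of Con and Rasa1_KO also enters these calls.

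Buffered genes fell into 2 groups by the direction of the sum. In 556 genes the sum was above 0, with a median expected change of 1.98 and an observed median of 0.91. NF2_KO was called higher than Con in 544 of them and Rasa1_KO in 348, and in 491 the change of Do was smaller than that of NF2_KO alone. Do was called lower than NF2_KO in 129 and higher in 1. In 425 genes the sum was below 0, with an expected median of -2.48 and an observed median of -1.22. NF2_KO was called lower than Con in 417 of them and Rasa1_KO in 208, and Do was called higher than NF2_KO in 174 and lower in 0. The median change of Do against NF2_KO was -0.38 in the 556 genes and 0.62 in the 425 genes, against 0.007 over all genes tested. That change is a term of the interaction by which these genes were chosen. Its direction here, in medians and counts, therefore follows in part from the choice and is a description only.

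*F3* (chr3:121723537-121735052), which encodes tissue factor, showed the buffered pattern in an abundant gene. It stood at 55.1, 52.3 and 55.3 CPM in Con, 118, 171 and 178 CPM in Rasa1_KO, 192, 187 and 188 CPM in NF2_KO, and 182, 175 and 170 CPM in Do. Its interaction was -1.63 (SE 0.19, edgeR adjusted p = 0.00064). Each loss raised it in every library, and Do lay below NF2_KO and overlapped with Rasa1_KO. The call held in each fit that left out 1 library.

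Genes of glycolysis and the hypoxia response were the list with the largest share of called members in the fit to all libraries, 64.0% against 53.8% for proliferation genes, an order that was reversed in each of the 12 fits that left out 1 library. These genes encode glucose transporters and glycolytic enzymes, together with targets of HIF such as the prolyl hydroxylases *Egln1* and *Egln3*, which mark HIF for degradation. All 25 members were tested, and 16 were called, all with an interaction below 0 and all buffered, against 3.72% of all genes below 0. The median interaction was -0.996, beside 0.03 over all genes. Of the 25 members, 23 were called higher in NF2_KO than in Con, 18 in Rasa1_KO and 24 in Do, against 20.6%, 4% and 19.7% of all genes. Between Do and NF2_KO, 0 were called by edgeR (3 at an unadjusted p under 0.05), at a threshold that called 3.66% of all genes. The spread in that test is taken from all 4 arms, the uneven Con among them, so the lack of calls does not show equal levels.

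*Slc2a1* (chr4:119108745-119137330), the glucose transporter GLUT1, stood at 140, 119 and 123 CPM in Con, 274, 266 and 269 CPM in Rasa1_KO, 392, 404 and 412 CPM in NF2_KO, and 367, 382 and 367 CPM in Do. All Do libraries were above all Rasa1_KO libraries and below all NF2_KO libraries. Its interaction was -1.20 (SE 0.12, edgeR adjusted p = 0.0004). *Car9*, a carbonic anhydrase of hypoxic cells, had the largest interaction of the list, -2.53 (SE 0.45, edgeR adjusted p = 0.0068). It stood at 1.20, 1.44 and 1.21 CPM in Con, 1.77, 4.67 and 5.43 CPM in Rasa1_KO, 7.80, 7.42 and 6.63 CPM in NF2_KO, and 4.16, 3.56 and 3.89 CPM in Do. *Pfkfb3*, whose product makes an activator of phosphofructokinase, differed from the other members: 10.1, 13.7 and 17.1 CPM in Con, 30.9, 30.4 and 28.5 CPM in Rasa1_KO, 19.4, 16.6 and 15.6 CPM in NF2_KO, and 14.6, 15.7 and 12.1 CPM in Do. It was high in Rasa1_KO alone, and its interaction was -1.42 (SE 0.25, edgeR adjusted p = 0.0062). The calls of *Slc2a1*, *Car9*, *Pfkfb3*, *Eno1*, *Pfkp*, *Hk2* and *Egln1* held without any 1 library, those of *Hk1*, *Bnip3*, *Gapdh*, *Ldha*, *Ndrg1*, *Pgam1*, *Pgk1*, *Pdk1* and *Egln3* did not.

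The summed level of the glycolysis and hypoxia list was itself uneven in Con: 12653, 9330 and 7285 CPM in the unnumbered library and libraries 1 and 2. It was 20326, 17636 and 17401 CPM in Rasa1_KO, 26891, 26751 and 28706 CPM in NF2_KO, and 27325, 27300 and 28059 CPM in Do, with *Pkm* the most abundant member. The Con, Rasa1_KO and remaining libraries formed separate ranges, and NF2_KO overlapped with Do. Without both unnumbered libraries 23 of the 25 members were called and all were below 0. The count was 7 without Do 1 and 23 without the unnumbered Con library, where 3.45% and 20.7% of all genes were called. The median interaction stayed between -1.18 and -0.84 in the 12 fits that left out a library.

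Promoter sequence is shown for members of this list, of which 16 were called in 1 direction. The 250 bases before each start were searched for the core of the hypoxia response element, ACGTG or GCGTG on either strand, in RefSeq promoters of GRCm38.p6. A match was present in all 15 called members that had an entry, the remaining called member being *Ndrg1*, and in 22 of 23 tested members. Of all genes tested with an entry 57.4% held a match, and 41.5% of all 27025 genes with a RefSeq promoter did. The list was drawn up from genes known to respond to hypoxia, and a match is a description of these letters, not a binding site. Stretches of 60 bases with several matches are printed below, matches in capitals, where CACGTG matches on both strands.
Slc2a1 (chr4:119108684-119108743, plus strand): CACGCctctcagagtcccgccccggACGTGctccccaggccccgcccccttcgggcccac
Pgk1 (chrX:106186950-106187009, plus strand): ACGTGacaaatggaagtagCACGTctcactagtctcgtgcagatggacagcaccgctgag
Ldha (chr7:46845744-46845803, plus strand): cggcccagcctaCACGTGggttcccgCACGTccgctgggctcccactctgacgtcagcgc
Bnip3 (chr7:138909564-138909623, minus strand): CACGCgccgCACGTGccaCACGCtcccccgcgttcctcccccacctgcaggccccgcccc

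Proliferation genes, which drive DNA replication and mitosis, also had an interaction below 0. All 26 members were tested, 14 were called, all below 0 and all buffered, against 3.72% of all genes below 0, and the median interaction was -0.92. NF2_KO was called higher than Con in 24 members and Rasa1_KO in 12, against 20.6% and 4% of all genes. In the absence of *Nf2* the additional loss went the other way, with Do called lower than NF2_KO in 9 members and higher in 0, where 315 of all 18053 genes were called lower. *Mki67* (chr7:135689784-135716450), which encodes the Ki-67 antigen of cycling cells, stood at 75.5, 117 and 111 CPM in Con, 146, 160 and 164 CPM in Rasa1_KO, 226, 210 and 181 CPM in NF2_KO, and 105, 117 and 98.1 CPM in Do. The Do libraries were back within the range of Con. The changes of *Mki67* against Con were 1.02 in NF2_KO, 0.63 in Rasa1_KO and 0.07 in Do, an interaction of -1.58 (SE 0.22, edgeR adjusted p = 0.002), and Do was lower than NF2_KO by a log2 change of -0.95 (edgeR adjusted p = 0.0073).

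*Top2a*, the topoisomerase of mitotic chromosomes, stood at 187, 160 and 144 CPM in Con, 255, 263 and 271 CPM in Rasa1_KO, 430, 472 and 452 CPM in NF2_KO, and 306, 303 and 307 CPM in Do. Unlike *Mki67*, it remained above Con and Rasa1_KO in every Do library, and its interaction was -1.25 (SE 0.15, edgeR adjusted p = 0.00071). The remaining called members were the mitotic kinases *Aurka*, *Aurkb*, *Plk1*, *Bub1* and *Bub1b*, the cyclins *Ccnb1* and *Ccnb2*, the replication factors *Cdc6*, *Mcm4* and *Mcm5*, *Cdc20* and *Birc5*, with interactions from -1.27 to -0.69, and the calls of *Mcm5*, *Cdc20* and *Ccnb2* were lost in 10, 6 and 4 of the 12 fits that left out a library. Without both unnumbered libraries all 26 members were called, below 0. The count was 11 without Do 1 and 25 without the unnumbered Con library, where 3.45% and 20.7% of all genes were called. The letters CCAAT, searched on both strands as the core of the CCAAT box common in promoters of mitotic genes, were present in 10 of the 12 called members that had an entry, against 40.4% of genes tested and 37.5% of all genes with a RefSeq entry. They were present in 17 of 22 tested members, called or not, and in 41.7% of all genes called for the interaction. A match is a description of these letters, not a binding site. Examples that carry several matches are printed with the matches in capitals.
Ccnb2 (chr9:70421555-70421614, minus strand): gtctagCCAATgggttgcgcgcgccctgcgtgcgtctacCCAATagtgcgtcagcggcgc
Aurka (chr2:172370571-172370630, minus strand): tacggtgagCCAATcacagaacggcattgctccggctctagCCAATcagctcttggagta
Top2a (chr11:99024228-99024287, minus strand): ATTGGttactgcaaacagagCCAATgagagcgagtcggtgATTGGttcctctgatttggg

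**Figure D3:**
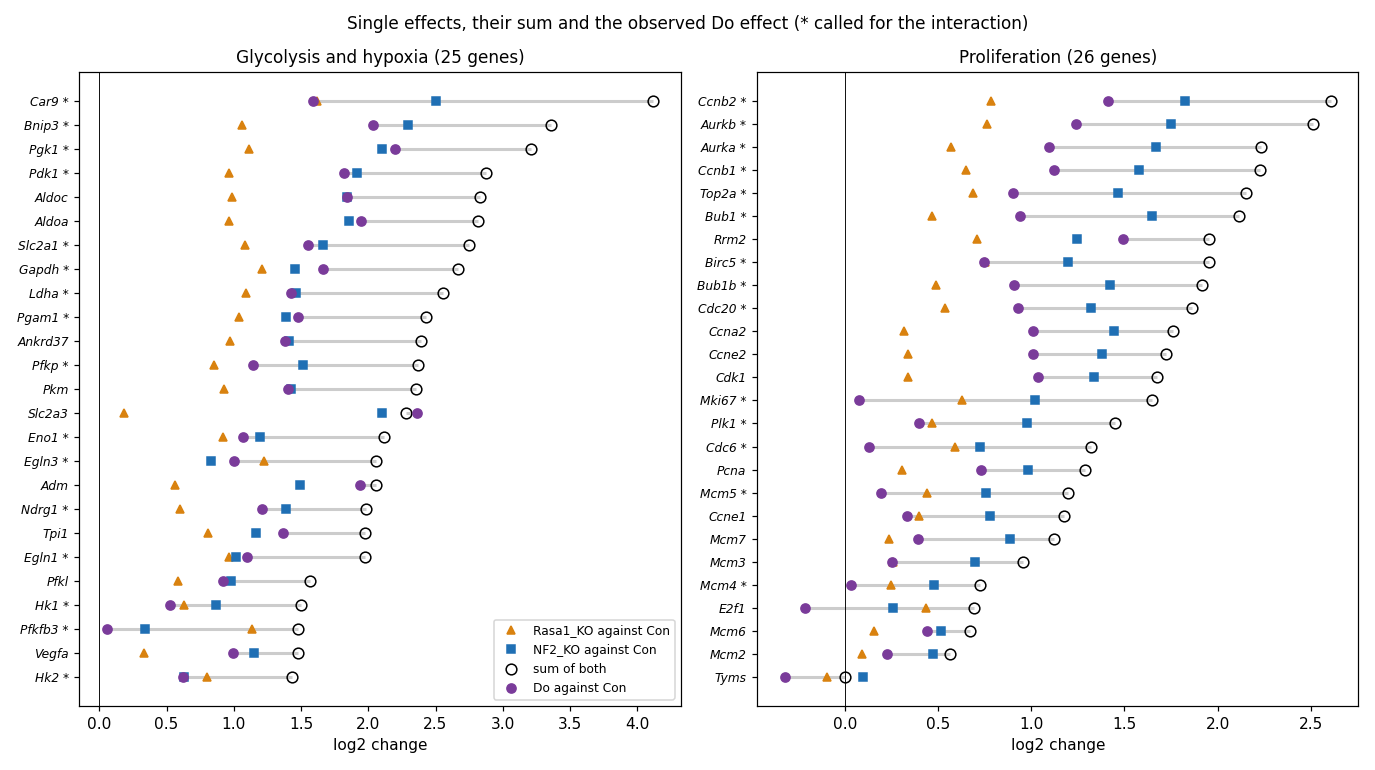
Changes against Con (log2) of the glycolysis and hypoxia genes and of the proliferation genes; triangles Rasa1_KO, squares NF2_KO, open circles their sum, filled circles Do, and a star after the name marks genes called. In glycolysis and hypoxia Do lies near NF2_KO, and in proliferation Do mostly lies below NF2_KO.

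Lists of epithelial junctions, mucosal secretion and xenobiotic enzymes had medians above 0. Of 25 tested genes of epithelial junctions, 5 were called above 0 and 1 below 0, with a median interaction of 0.63, against 2.69% and 3.72% of all genes, and 16 were called lower in NF2_KO than in Con, against 22.2%. Do was called higher than NF2_KO in 6 and lower in 0, where 346 of all 18053 genes were called higher. *Tjp3* (chr10:81273188-81291581), a scaffold of tight junctions, stood at 74.9, 81.3 and 65.1 CPM in Con, 38.6, 44.4 and 42.5 CPM in Rasa1_KO, 4.18, 4 and 4.82 CPM in NF2_KO, and 13.5, 13.8 and 14.2 CPM in Do. No library overlapped with another arm. Its change was -4.09 in NF2_KO, -0.82 in Rasa1_KO and -2.41 in Do, an interaction of 2.49 (SE 0.16, edgeR adjusted p = 2.5e-05). *Rasa1* loss thus went with a lower *Tjp3* level in the presence of *Nf2* and with a higher one in its absence (1.67, edgeR adjusted p = 8.4e-05). *Epcam*, an epithelial adhesion molecule, did the same, at 62.8, 68.1 and 62.1 CPM in Con, 23.6, 42.7 and 41.5 CPM in Rasa1_KO, 9.97, 10.7 and 10.4 CPM in NF2_KO, and 21.8, 22.6 and 21.7 CPM in Do (interaction 1.93, SE 0.25, edgeR adjusted p = 0.0014). The junction genes *Cldn2*, *Ocln* and *Patj* were also called above 0, and *Pkp1*, a desmosomal plaque protein, below 0. The call of *Ocln* was lost in 5 and that of *Patj* in 1 of the 12 fits that left out a library. The count of called junction genes was 16 without the unnumbered Con library and 17 without both unnumbered libraries, where 20.7% and 25.3% of all genes were called.

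Of 21 tested genes of mucosal secretion and defence, 5 were called above 0 and 1 below 0, against 2.69% and 3.72% of all genes, and the median interaction was 1.16. NF2_KO was called lower than Con in 16 of them, against 22.2% of all genes, and Do higher than NF2_KO in 3, against 1.92%, and lower in 0. *Lcn2* (chr2:32384637-32387739), a secreted iron-scavenging lipocalin, stood at 1466, 1087 and 1096 CPM in Con, 544, 432 and 445 CPM in Rasa1_KO, 22, 20.3 and 20.6 CPM in NF2_KO, and 37.9, 39.6 and 38.0 CPM in Do. Both losses lowered it, and Do was above every NF2_KO library while far below Rasa1_KO (interaction 2.24, SE 0.19, edgeR adjusted p = 0.00019). *Muc1*, *Muc5ac*, *Wfdc2* and *Olfm4* were called above 0 and *Slpi*, a protease inhibitor of mucus, below 0. The calls of *Muc1*, *Slpi* and *Muc5ac* were lost in 11, 9 and 8 of the 12 fits that left out a library, those of *Lcn2*, *Wfdc2* and *Olfm4* in 0. The called members numbered 3 without Do 1, 10 without the unnumbered Con library and 13 without both unnumbered libraries, where 20.7% and 25.3% of all genes were called. Xenobiotic and aldehyde enzymes had 9 members above 0 and 1 below 0 of 26 tested, against the same 2.69% and 3.72% of all genes, with a median of 0.60. *Gsta3*, a glutathione transferase, stood at 137, 79.9 and 63.3 CPM in Con, 43.7, 27.6 and 29.2 CPM in Rasa1_KO, 2.09, 2.71 and 2.68 CPM in NF2_KO, and 6.21, 5.15 and 6.66 CPM in Do (interaction 2.74, SE 0.38, edgeR adjusted p = 0.002). *Aldh3a1*, *Aldh1a1*, *Aldh1a7*, *Fmo1*, *Fmo2*, *Gsta4*, *Gsto1* and *Gclm* shared the sign of its interaction. Their changes varied, *Fmo1* being higher in NF2_KO than in Con (1.11) and *Fmo2* having a change of -0.72 in Do against NF2_KO. *Hmox1*, a stress-induced haem oxygenase, was the member below 0. Calls were lost for *Gsta4* in 8, *Aldh1a7* and *Hmox1* in 6, *Aldh1a1* in 5, *Gclm* in 4 and *Gsto1* in 3 of the 12 fits that left out a library. The called enzymes numbered 5 without NF2_KO 1, 14 without the unnumbered Con library and 17 without both unnumbered libraries, beside the same 20.7% and 25.3%.

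**Figure D4:**
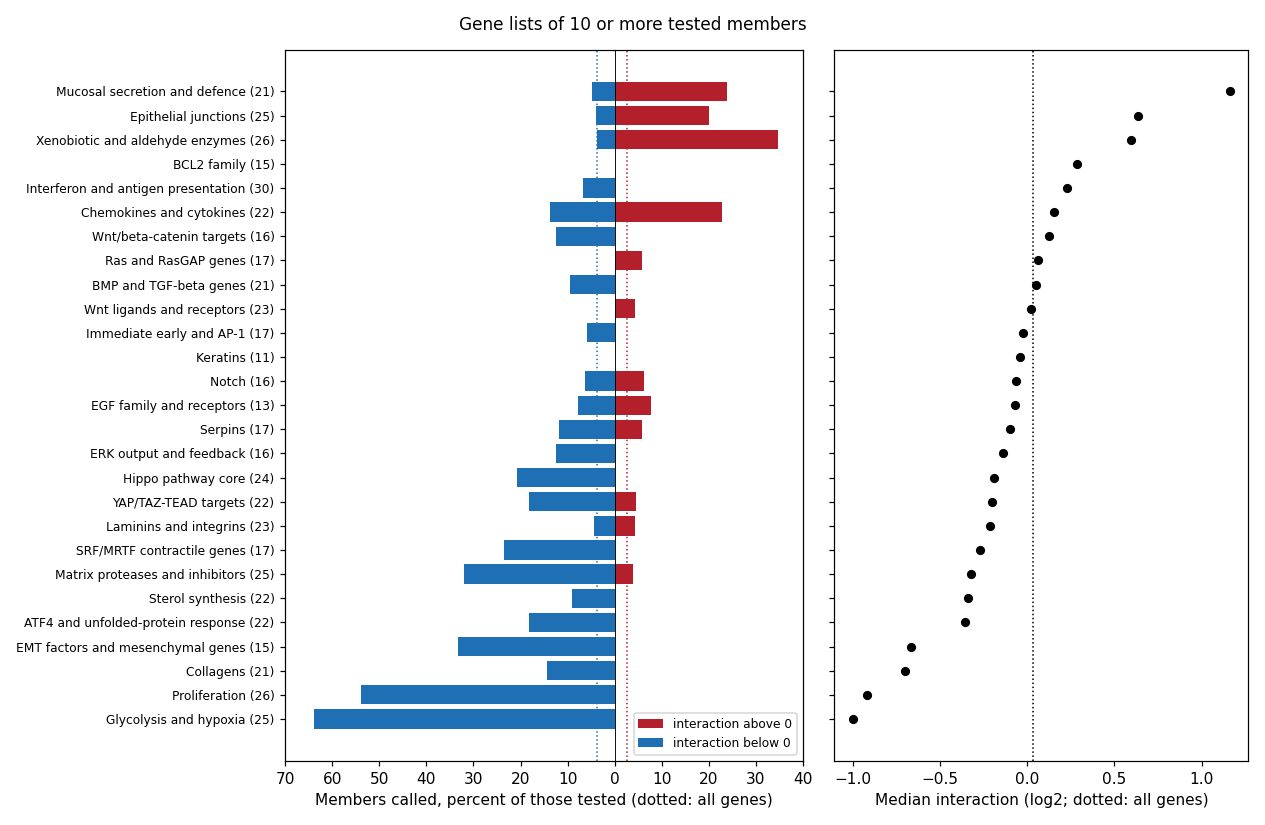
Members called above 0 and below 0 as percent of those tested (left) and median interaction (right, log2) for gene lists with 10 or more tested members; dotted lines give the same over all genes tested (2.69%, 3.72% and 0.03). Glycolysis and hypoxia, proliferation, collagens and EMT lie at the negative end and mucosal, junction and xenobiotic genes at the positive end.

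The largest interactions above 0 included genes that were low in both single arms and not in Do. *Pamr1* (chr2:102549939-102643041), a secreted protein with a protease-like domain, stood at 17.6, 22.3 and 16.3 CPM in Con, 7.72, 6.98 and 8.14 CPM in Rasa1_KO, 2.51, 2.95 and 3.41 CPM in NF2_KO, and 14.3, 14.2 and 16.3 CPM in Do. Do touched the range of Con, and the single arms lay apart from both. The change of *Pamr1* in Do against Con was -0.33 (edgeR adjusted p = 0.1) where the sum was -3.96, and the interaction was 3.63 (SE 0.22, edgeR adjusted p = 2.5e-05). *Cdh11* (chr8:102632095-102785493), a mesenchymal cadherin, had the largest interaction of all named genes, 5.62 (SE 1.01, edgeR adjusted p = 0.0088), and was overturned. It stood at 0.159, 2.59 and 2.98 CPM in Con, 0.208, 0.656 and 0.502 CPM in Rasa1_KO, 0.494, 0.502 and 0.499 CPM in NF2_KO, and 6.47, 5.71 and 5.56 CPM in Do. Every Do library was the highest of all, but the unnumbered Con library was the lowest, and none of the changes against Con passed the threshold. Without both unnumbered libraries its interaction was 5.82. *B4galnt3*, a glycosyltransferase, had a similar order with all Con values at or under 1.21 CPM and Do values from 1.52 to 1.98 CPM (interaction 4.90, SE 0.87, edgeR adjusted p = 0.0072). *Ms4a8a*, *Adh1*, *Mylk2*, *Fmo2*, *Clec2g*, *Kcnj11*, *Fxyd3* and *Olfm4* completed the leading genes, with interactions from 3.40 to 4.47; *Mylk2* lost its call in 10 of the 12 fits that left out a library, among them those without Con 1 or Con 2.

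*Fmo1* (chr1:162829561-162866610), a flavin monooxygenase, was overturned, with a sum below 0 and Do above Con, and the single losses moved it in opposite directions. It stood at 2.14, 1.28 and 1.81 CPM in Con, 0.350, 0.268 and 0.188 CPM in Rasa1_KO, 4.57, 3.65 and 3.10 CPM in NF2_KO, and 5.54, 5.22 and 6.24 CPM in Do. Do was as high as or higher than NF2_KO in every library, and the interaction was 3.27 (SE 0.37, edgeR adjusted p = 0.00063). Its neighbour *Fmo2* fell in all 3 arms, with 16.1, 10.1 and 10.8 CPM in Con, 0.372, 0.696 and 0.677 CPM in Rasa1_KO, 1.67, 1.53 and 1.9 CPM in NF2_KO, and 0.804, 1.34 and 0.95 CPM in Do (interaction 3.69, SE 0.40, edgeR adjusted p = 0.00052). Over all overturned genes, the single changes had opposite directions in 52 and the same direction in 103. Do was called higher than Con in 23 of them and lower in 48, against 19.7% and 22.2% of all genes.

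The largest interactions below 0 were *Slc6a15*, *Arhgef4*, *Tro*, *P2ry14*, *Lhx8*, *Acta2*, *Bean1*, *Papln*, *Ccdc184* and *Adm2*, from -4.48 to -3.13. *Arhgef4*, a guanine nucleotide exchange factor, stood at 0.106, 0.259 and 0.198 CPM in Con, 0.951, 1.9 and 1.57 CPM in Rasa1_KO, 1.88, 1.67 and 1.53 CPM in NF2_KO, and 0.778, 0.986 and 0.821 CPM in Do. The single arms overlapped, and Do lay below NF2_KO and near the lowest Rasa1_KO library (interaction -3.95, SE 0.48, edgeR adjusted p = 0.00099). *Acta2* (chr19:34240336-34255585), smooth muscle actin, stood at 1.33, 5.50 and 4.56 CPM in Con, 8.42, 16.9 and 17.2 CPM in Rasa1_KO, 3.15, 2.25 and 3.48 CPM in NF2_KO, and 1.28, 0.779 and 1.16 CPM in Do. It was highest in Rasa1_KO and lowest in Do, and was overturned with an interaction of -3.37 (SE 0.63, edgeR adjusted p = 0.01). In the unnumbered Rasa1_KO library *Slc6a15* stood at 1.74 CPM against 0.201 and 0.238 CPM in the others, and its interaction was -4.48 with all libraries and -2.98 without both unnumbered ones. Its call was lost without Con 1, Do 1, Do 3 or NF2_KO 2. *Tro*, *Lhx8*, *Bean1* and *Ccdc184* lost their calls in 8 to 10 of the 12 fits that left out a library.

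Of the 21 enhanced genes, 17 had an interaction below 0, and in 17 the single changes had opposite directions. *Axin2* (chr11:108917828-108950783), a negative regulator and target of Wnt/β-catenin signalling, stood at 14.8, 23.7 and 23.0 CPM in Con, 35.8, 25.5 and 23.6 CPM in Rasa1_KO, 16.1, 13.7 and 14.1 CPM in NF2_KO, and 7.99, 8.71 and 8.60 CPM in Do. Do was below every other library. The changes were -0.49 in NF2_KO and 0.47 in Rasa1_KO, neither of them called, and -1.28 in Do, an interaction of -1.26 (SE 0.27, edgeR adjusted p = 0.019), which was -0.87 without both unnumbered libraries. The single changes nearly cancelled, so the class of *Axin2* rests on the sign of a sum near 0. The call of *Axin2* was lost without Do 1, Do 3 or NF2_KO 1. *Ccl2*, a monocyte chemokine, stood at 251, 236 and 208 CPM in Con, 326, 253 and 277 CPM in Rasa1_KO, 163, 163 and 178 CPM in NF2_KO, and 123, 104 and 115 CPM in Do (interaction -0.86, SE 0.17, edgeR adjusted p = 0.011). It too was lowest in every Do library. *Nek10*, a kinase, had an interaction of -1.36 (SE 0.27, edgeR adjusted p = 0.012), and the calls of *Sp100*, *Myl9*, *Adgrb2* and *Adora2b* were lost in 8 to 10 of the 12 fits that left out a library.

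Additive genes with both single losses called show what a plain sum looks like. Among the 4439, both single losses were called in the same direction in 153 genes, 90 higher and 63 lower. *Hebp1* (chr6:135137519-135168215), a haem-binding protein, stood at 0.776, 0.899 and 0.575 CPM in Con, 2.15, 2.02 and 1.84 CPM in Rasa1_KO, 1.95, 2.26 and 2.50 CPM in NF2_KO, and 6.11, 7.49 and 7.52 CPM in Do. The single arms overlapped and Do lay well above both. Its changes were 1.41 in Rasa1_KO, 1.56 in NF2_KO and 3.22 in Do, with an interaction of 0.25 (95% interval -0.35 to 0.85). *Slco1a5*, an organic anion transporter, went down in the same way, at 14.4, 22.8 and 21.0 CPM in Con, 6.53, 11.1 and 10.1 CPM in Rasa1_KO, 7.46, 7.87 and 7.65 CPM in NF2_KO, and 3.52, 3.70 and 4.57 CPM in Do (interaction 0.10, 95% interval -0.56 to 0.77). *Saa3*, an acute-phase protein, *Kalrn*, also a guanine nucleotide exchange factor, *Sirpa* and *Serpina3g* had interactions between -0.16 and 0.26 and changes in Do between -5.58 and -2.11.

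Genes of mesenchymal character and matrix remodelling were mostly below 0. Of 15 tested EMT and mesenchymal genes, 5 were called, all below 0, among them *S100a4*, *Sparc*, *Tnc* and *Vim*, with a median of -0.67. The intermediate filament gene *Vim* stood at 923, 791 and 784 CPM in Con, 1390, 1742 and 1701 CPM in Rasa1_KO, 3848, 3765 and 3895 CPM in NF2_KO, and 3661, 3703 and 3745 CPM in Do (interaction -1.003, SE 0.17, edgeR adjusted p = 0.0056). Do was far above Rasa1_KO and slightly below NF2_KO. Of 25 matrix proteases and inhibitors, 8 were called below 0, among them *Timp3*, *Mmp3*, *Mmp13*, *Plau* and *Plat*, and *Mmp15* above 0. *Timp3*, an inhibitor of metalloproteases, had an interaction of -2.54 (SE 0.37, edgeR adjusted p = 0.0027). Of 21 collagens, 3 were called, all below 0 (*Col4a1*, *Col6a2*, *Col16a1*), with a median of -0.70, of 23 laminins and integrins *Lamb3* was called above 0 and *Lamb1* below 0, and of 17 serpins 3 were called, among them *Serpinb7* below 0 and *Serpinb1a* above 0. These shares of called members were 14.3% in collagens, 8.7% in laminins and integrins and 17.6% in serpins, against 6.41% of all genes. In collagens Do was called lower than NF2_KO in 5 members and higher in 0, where 315 of all 18053 genes were called lower. Without the unnumbered Con library the calls were 9 in the EMT list, 13 in the proteases, 11 in the collagens, 5 in laminins and integrins and 5 in serpins, where 20.7% of all genes were called. The 5 of 23 laminins and integrins lie near that share. The lowest counts over the 12 fits were 4, 8, 3, 2 and 3, and the call of *Tnc* was lost in 8 and that of *Plat* in 5 of them.

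Fibroblast markers were measured beside these lists. Of 10 such markers 7 were in the tables, *Lum*, *Thy1* and *Postn* not being among them, and their summed level was 75.1, 927 and 742 CPM in Con, 125, 291 and 285 CPM in Rasa1_KO, 6993, 7257 and 7586 CPM in NF2_KO, and 2477, 2613 and 2580 CPM in Do. *Col3a1* made up most of it, and the 7 members did not move as one: their median interaction was -0.14, with *Dcn* called above 0 and *Acta2* below 0. The sum was highest in NF2_KO and lowest in the unnumbered Con library, and its part in the results was not tested. In bulk libraries, more cells of a type and more RNA per cell cannot be told apart. Of the other marker lists, 4 of 10 immune markers were measured, and their sum, with *Cd14* the most abundant, was 228 to 366 CPM in Con, 206 to 233 CPM in Rasa1_KO, 65.7 to 69.8 CPM in NF2_KO and 93.7 to 103 CPM in Do. *Ptprc*, which defines leukocytes, was at or under 0.412 CPM in every arm. The sum of 3 of 7 endothelial markers, with *Flt1* the most abundant, was 48.9 to 137 CPM over all libraries, with *Pecam1* at or under 0.684 CPM in every arm. *Cd14* (1.01), *Flt1* (-1.33), *Acta2* (-3.37), *Dcn* (1.73), *Epcam* (1.93) and *Muc5ac* (2.44) were the markers called for the interaction, and the calls of *Flt1* and *Muc5ac* were lost in 8 and that of *Cd14* in 6 of the 12 fits that left out a library.

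Genes of the pathways around the targets were examined next. Of 22 YAP/TAZ-TEAD targets, 5 were called, *F3*, *Amotl2*, *Axl* and *Lats2* below 0 and *Fjx1* above 0 (22.7%, against 6.41% of all genes), and the median was -0.20. *Amotl2*, which binds YAP, stood at 29.4, 48.7 and 38.6 CPM in Con, 42.5, 64.9 and 65.1 CPM in Rasa1_KO, 285, 293 and 298 CPM in NF2_KO, and 191, 197 and 203 CPM in Do. Do was below NF2_KO in every library (interaction -1.13, SE 0.26, edgeR adjusted p = 0.026), and the call was lost in 8 of the 12 fits that left out a library. *Ccn1* and *Ccn2*, secreted proteins and common readouts of YAP, were undetermined: *Ccn1* stood at 16.7, 58.0 and 54.3 CPM in Con, 25.0, 99.6 and 102 CPM in Rasa1_KO, 388, 392 and 416 CPM in NF2_KO, and 153, 156 and 153 CPM in Do. Its interaction of -2.19 (95% interval -3.68 to -0.70) did not pass the adjusted threshold (edgeR adjusted p = 0.089), the unnumbered libraries being the lowest of their arms. Without both of them it was -2.22 and called (edgeR adjusted p = 1.6e-07), and it was also called without the unnumbered library of either arm. *Ccn2* had an interaction of 0.05 (95% interval -0.86 to 0.97). Of 24 genes of the Hippo core, *Amotl2*, *Lats2*, *Wwtr1*, *Frmd6* and *Fat4* were called below 0 and 0 above 0 (20.8%), with a median of -0.19. Calls were lost for *Fjx1* in 9, *Lats2* in 8, *Axl* in 6 and *Wwtr1* in 5 of the 12 fits. The count of YAP/TAZ-TEAD targets called was 1 without Do 1 and 11 without the unnumbered Con library, and that of the Hippo core 2 without Do 2 and 8 without the unnumbered Con library. Of all genes, 3.45% were called without Do 1, 3.61% without Do 2 and 20.7% without the unnumbered Con library. The 1 target called without Do 1 (4.55%) lies near the share of all genes.

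Of 16 genes of ERK output and feedback, *Dusp6*, a phosphatase of ERK, and *Epha2* were called below 0. *Dusp6* stood at 110, 124 and 110 CPM in Con, 166, 164 and 171 CPM in Rasa1_KO, 186, 196 and 198 CPM in NF2_KO, and 207, 188 and 193 CPM in Do (interaction -0.52, SE 0.12, edgeR adjusted p = 0.026), a call lost in 8 of the 12 fits that left out a library. Each loss raised it by itself, and Do overlapped with NF2_KO. Of 17 Ras and RasGAP genes *Rasal1*, another Ras GTPase-activating protein, was called above 0 (2.34), and of 17 immediate early genes *Fosl2* below 0 (-0.73), shares of 5.88% each that lie near the 6.41% of all genes. Of 13 genes of the EGF family *Areg* below 0 (-1.13) and *Nrg4* above 0 (1.30) were called, of 21 BMP and TGF-β genes *Bmp4* (-0.86) and *Tgfbr2* (-0.64) below 0, and of 17 SRF/MRTF contractile genes *Acta2*, *Tpm2*, *Cnn3* and *Myl9* below 0. Among 16 Wnt/β-catenin targets *Axin2* and *Apcdd1* were called below 0, among 23 Wnt ligands and receptors *Wnt4* above 0 (1.06, a share of 4.35%), and among 7 IGF-binding proteins and receptors *Igf2r* below 0 (-0.74) and *Igfbp4* and *Igfbp5* above 0. Of 15 BCL2 family genes 0 were called by edgeR (3 at an unadjusted p under 0.05 and 2 by DESeq2), not even *Bcl2* (interaction 0.29, 95% interval -0.01 to 0.58) or *Bcl2l1* (0.27, 95% interval -0.11 to 0.66), both additive; 13 of the 15 values were above 0. Left-out libraries moved these counts: the fits without Do 1 and without the unnumbered Con library called 0 and 3 genes of ERK output, 1 and 7 of BMP and TGF-β, 2 and 9 of the contractile genes and 0 and 3 Wnt/β-catenin targets. These fits called 3.45% and 20.7% of all genes. The 3 genes of ERK output and the 3 Wnt/β-catenin targets, 18.8% of each list, lie near the latter share. Wnt ligands and receptors numbered 0 without Do 2 and 7 without the unnumbered Con library, and IGF-binding proteins 1 without Do 3 and 4 without the unnumbered Con library. Of all genes, 3.61% were called without Do 2 and 3.64% without Do 3. The fit without the unnumbered Con library called 2 BCL2 family genes, 4 of the EGF family, 3 Ras and RasGAP genes and 2 immediate early genes. Without both unnumbered libraries 4 BCL2 family genes were called, all above 0, where 25.3% of all genes were called. The calls of *Epha2* and *Myl9* were lost in 8, *Fosl2* and *Igf2r* in 9, *Cnn3* in 7 and *Tgfbr2* in 5 of the 12 fits.

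Of the 13 genes that the study names for these cells, *Birc5*, *Axin2* and *Bmp4* were called below 0 and *Igfbp4* above 0 (30.8%, against 6.41% of all genes). The count was 2 without Do 3 and 6 without the unnumbered Con library, where 3.64% and 20.7% of all genes were called. *Igfbp4*, which binds insulin-like growth factors, stood at 221, 176 and 143 CPM in Con, 176, 120 and 112 CPM in Rasa1_KO, 149, 146 and 153 CPM in NF2_KO, and 246, 252 and 274 CPM in Do. Every Do library was the highest of all (interaction 1.19, SE 0.25, edgeR adjusted p = 0.018, lost without Do 3, NF2_KO 1, NF2_KO 2, Rasa1_KO 1 or Rasa1_KO 2). *Aqp5*, a water channel of gastric stem cells, was additive, at an interaction of 0.11 (95% interval -0.63 to 0.86), as were *Ccnd1* at -0.15 (95% interval -0.54 to 0.23) and *Cd44* at 0.15 (95% interval -0.67 to 0.96). *Wnt5a* (-1.40, 95% interval -3.24 to 0.44) was undetermined, with values from -2.15 without Con 2 to -0.84 without the unnumbered Con library, where it was called. *Wnt5a* was -0.92 and called without both unnumbered libraries (edgeR adjusted p = 0.024). *Lgr5* (-0.61, 95% interval -1.20 to -0.02, edgeR adjusted p = 0.24) was undetermined too. Over the 12 fits that left out a library its value ran from -0.87 to -0.44, and only the fit without Con 2 called it.

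With the arms taken from the genotype labels, list medians moved as well. The mucosal median went from 1.16 to 5.52, the junction median from 0.63 to 1.71, the glycolysis and hypoxia median from -0.996 to -1.83 and the proliferation median from -0.92 to -1.30. Lists with medians near 0 changed sign, among them the Hippo core (-0.19 to 0.09), laminins and integrins (-0.21 to 0.09), Notch (-0.06 to 0.72) and BMP and TGF-β genes (0.05 to -1.10). The gastric epithelial markers went from 0.44 to -0.26.

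**Figure D5:**
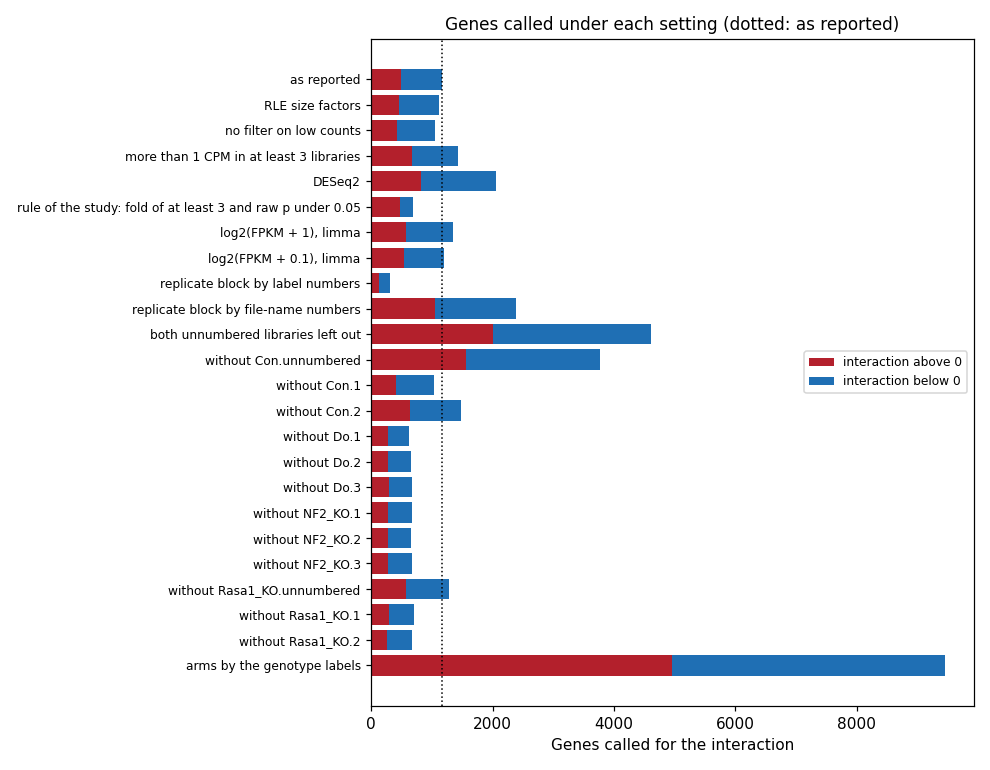
Genes called for the interaction (x axis, number; red above 0, blue below 0) as reported and under each alternative; the dotted line marks 1157. Leaving out the unnumbered Con library raises the count to 3762, leaving out both unnumbered libraries to 4603, and arms by the genotype labels to 9454.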

How the data were processed

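Per the labels and the study's methods, total RNA depleted of ribosomal RNA was made into stranded libraries, reads were trimmed with Trimmomatic 0.38, aligned to mm10 with HISAT2 2.1.0, sorted with SAMtools 1.9 and quantified against RefSeq with StringTie 2.1.3b. The authors deposited 1 table per sample with raw counts per gene, which were tested here, and FPKM values, which served as an alternative. The TPM and log2 columns that the authors deposited beside them were not used. Each gene in the tables has at least 1 count in every library.

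Arms came from the table names and label arms were an alternative. Counts were fitted with edgeR 4.0.16 (R 4.3.3, TMM, filterByExpr, quasi-likelihood test, no replicate block) over all 12 libraries, with Benjamini-Hochberg adjustment over all genes tested and a threshold of 0.05. CPM are scaled by TMM. With 3 libraries against 3 an exact permutation test of one gene cannot go below 0.1. Alternatives used DESeq2 1.42.0, limma 3.58.1 on log2(FPKM + 1) and log2(FPKM + 0.1), other filters, replicate blocks and left-out libraries. The fit was also run on simulated counts in which all arms had the same spread per gene. That run does not cover the uneven spread of these libraries.

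Named genes were the targets, the 10 largest interactions in each direction among called protein-coding genes with at least 1 CPM in an arm, the 5 largest of each class, 6 additive genes with both single losses called in 1 direction, called members of the gene lists and 13 genes the study names, some of which are not reported here. The comparison, members and lists were chosen with earlier results of these data known.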

Additional observations from a re-analysis of the deposited data

Results flagged for a closer look

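The effect of one loss differed with the presence of the other in 1157 genes, by edgeR's test of the difference itself. Over all genes tested, the *Nf2* effect was called in opposite directions in the 2 *Rasa1* backgrounds in 79 genes, and the *Rasa1* effect in opposite directions in the 2 *Nf2* backgrounds in 117. The named genes among them are given with their interactions in log2 units. Groups of 3 libraries were not tested for single outlying libraries.

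Of 26 proliferation genes, 12 were called higher in Rasa1_KO than in Con and 9 lower in Do than in NF2_KO, against 4% and 1.74% of all genes. Both calls were made, with the interactions in parentheses, for *Mki67* (-1.58), *Aurkb* (-1.27), *Top2a* (-1.25), *Cdc6* (-1.19), *Bub1* (-1.18), *Aurka* (-1.14), *Plk1* (-1.05) and *Bub1b* (-1.01). The same turn was seen in *Plau* (-1.71), the urokinase protease, in *Trib3* (-1.28), a pseudokinase of the stress response, in *Loxl2* (-1.03), a collagen crosslinking enzyme, and in *Lamb1* (-0.77), a laminin chain.

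The opposite turn, a lower level after *Rasa1* loss with *Nf2* present and a higher one without it, was seen in *Pamr1* (3.63), *Clec2g* (3.60), *Kcnj11* (3.54), *Gsta3* (2.74), *Tjp3* (2.49), *Rasal1* (2.34), *Lcn2* (2.24), *Epcam* (1.93) and *Tnf* (1.79). The *Nf2* effect turned from lower to higher in *B4galnt3* (4.90), *Fmo2* (3.69), *Dcn* (1.73), *Wfdc2* (1.12) and *Serpinb1a* (1.00), and in *Pamr1* as well. It turned from higher to lower in *P2ry14* (-3.67), *Papln* (-3.28), *Col6a2* (-1.37) and *Adamts4* (-1.01), and also in *Mki67* and *Cdc6*.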

How the results depend on the processing

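The 1157 genes called became 2055 with DESeq2 and 688 (466 above 0 and 222 below 0) by the study's rule of a fold of at least 3 and raw p, 283 of them shared. Buffered genes were then 1671 and 563, overturned 321 with DESeq2, and enhanced 63 and 10. Enhanced genes numbered 36 with more than 1 CPM in 3 libraries. Additive genes numbered 169 by the study's rule, 6976 on log2(FPKM + 1) and 910 with a bound of 0.5. Without both unnumbered libraries 4603 genes were called, 3845 buffered, 569 overturned and 189 enhanced. Leaving out each library in turn gave 628 to 3762 called, 543 to 3230 buffered, 76 to 424 overturned, 8 to 108 enhanced and 3335 to 5973 additive, the highest without the unnumbered Con library. No gene called changed sign under these settings. With arms by the labels, 9454 were called, 6657 buffered, 2779 overturned and 505 additive. Over the whole design, numbers did not pair the libraries: 5 of 14 pairs by table number and 4 of 14 by label number correlated above 0.1. Between Con and Rasa1_KO all 3 pairs by table number did (0.626 for the unnumbered, 0.313 and 0.444), as did the numbered libraries across numbers (0.399 and 0.258). A replicate block by label numbers gave 305 called, 275 buffered, 28 overturned and 2 enhanced, with 86 of 159 genes chosen by the naming rule losing their call, and one by table numbers 2387, 1931, 377 and 79. Of the 159 genes chosen by the naming rule, 30 changed sign with arms by the labels, to *Acta2* 4.08, *Adamts4* 0.34, *Adgrb2* 4.08, *Adora2b* -6.84, *Aqp5* -6.52, *Axin2* 2.23, *Bean1* 4.80, *Ccl2* 1.79, *Cdh11* -1.79, *Col6a2* 0.31, *Cxcl3* 0.79, *Dcn* -0.29, *Flt1* 0.89, *Fmo1* -5.50, *Hebp1* -3.37, *Igfbp4* -0.65, *Kalrn* 3.57, *Lgr5* 2.66, *Myl9* 6.50, *Nek10* 3.73, *Nf2* 4.41, *P2ry14* 0.025, *Papln* 1.17, *Pfkfb3* 0.74, *Plat* 0.41, *Rasa1* -1.10, *Slc7a11* 1.48, *Sp100* 2.06, *Tap2* 0.73 and *Tnc* 0.26. The cause of the other changes was not tested. RLE factors and the absence of a filter left 1122 and 1044 called.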

Other observations

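Of 22 tested chemokines and cytokines, *Csf3*, *Il1rn*, *Tnf*, *Ccl28* and *Cxcl16* were called above 0 and *Ccl2*, *Il33* and *Cxcl3* below 0, with a median interaction of 0.15. *Tnf*, an inflammatory cytokine, had an interaction of 1.79 and *Il33*, an epithelial alarmin, of -1.75. Of 22 genes of ATF4 and the unfolded-protein response, *Chac1*, *Trib3*, *Sesn2* and *Slc7a11* were called below 0, with a median of -0.36. All 22 tested sterol synthesis genes had values below 0, with a median of -0.34. Of them 2 were called (9.09%, against 6.41% of all genes), 14 without the unnumbered Con library (where 20.7% of all genes were called) and 2 without any other 1 library.

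Of 30 genes of interferon response and antigen presentation, *Psmb8* and *Tap2* were called below 0, a share of 6.67% near the 6.41% of all genes, while the median was 0.23. Of 16 Notch genes, the ligand *Dll1* was called above 0 and the ligand *Jag2* below 0. Of 11 keratins 0 were called by edgeR (1 at an unadjusted p under 0.05 and 1 by DESeq2), with a median of -0.04. Over the 12 fits that left out 1 library, calls ranged from 5 to 10 in chemokines and cytokines, 3 to 11 in the ATF4 list, 1 to 7 in interferon, 0 to 6 in Notch and 0 to 1 in keratins. The highest were without the unnumbered Con library, where 20.7% of all genes were called. The calls of *Jag2*, *Tap2* and *Ccl28* were lost in 10 of these fits, *Cxcl16* in 9, and *Dll1*, *Csf3* and *Slc7a11* in 8.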
